A study of Mus musculus with 8 samples.

Results

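The 9 genes described here are Crym and a set of genes of thyroid hormone uptake, conversion and response. The set is Slco1c1, Dio2, Dio3, the receptor genes Thra and Thrb, the receptor partners Rxra and Rxrb, and the target Klf9. The 9 genes are among the 23284 gene symbols counted in dorsal cortex of mouse embryos, were read by symbol from the raw counts, and all 9 had enough reads to be tested. Crym was chosen by its difference in counts between the genotypes in these same libraries, so its genotype values are a description and carry no test. The other 8 genes were put in for their roles, but with earlier results of these data known.

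The samples were E15.5 dorsal cortex of C57BL/6 mice, from which the authors had removed the meninges and the ganglionic eminences. There were 4 libraries labelled WT (ErbB4+/+) and 4 labelled ErbB4 KO. The label ErbB4 KO is written below as ErbB4-/-, the authors' name for this genotype. In ErbB4-/- mice the receptor tyrosine kinase ErbB4 is knocked out in the germline, and they survive through an ErbB4 transgene driven in the heart by the α-MHC promoter. The 2 genotypes were kept as separate homozygous colonies, and neither the labels nor the methods say which embryos or litters gave which library. The p-values therefore measure the spread between these libraries, which may be partly technical. PolyA-selected RNA was sequenced without keeping the strand.

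Thyroid hormone enters the brain as the prohormone T4 and as the active T3 through membrane transporters. Within the tissue the type 2 deiodinase makes T3 from T4, and the type 3 deiodinase inactivates both. T3 binds nuclear receptors that sit on DNA as partners of the retinoid X receptors, while the protein made from Crym, µ-crystallin, binds T3 in the cytosol. In the fetal cortex this hormone is known for its part in the migration and differentiation of neurons.

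Between 28205703 and 48871480 reads were counted per library, and values below are CPM, read counts relative to the library's total, after edgeR's TMM scaling. In the fit across 14696 genes, 4 genes (0.0272%) passed an adjusted p of 0.05, 0.00680% with a higher level in the libraries labelled ErbB4-/-, and DESeq2 called 24 (0.163%). The median log2 fold change of all genes tested was -0.0022. Erbb4 itself was not lower in the libraries labelled ErbB4-/-. It was at 8.99, 19.9, 25.3 and 19.2 CPM in ErbB4+/+ replicates 1 to 4 and at 20.9, 24.6, 20.7 and 23.5 CPM in replicates 1 to 4 labelled ErbB4-/-. Counting was per gene and does not show which exons were read, and the genotypes are therefore given as labelled. Wdfy1, chosen after its values were seen, did separate the labels, with 20.7 to 23.2 CPM against 107 to 115 CPM. Xist, which is transcribed from the inactive X chromosome of females, was at 983 to 1690 CPM in ErbB4+/+ replicates 1 to 3 and at 2.70 to 3.82 CPM in ErbB4+/+ replicate 4 and all 4 libraries labelled ErbB4-/-. Genotype therefore cannot be told apart from sex pattern, except through ErbB4+/+ replicate 4. ErbB4+/+ replicate 1 also stood apart, because its log2 CPM against the mean of the other libraries fell with transcript length (Spearman's rho of -0.579 across genes, against 0.0374 to 0.223 in the other 7 libraries).

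Crym lies on the minus strand of chromosome 7 at chr7:127329894-127345625 (mm9). Its level in ErbB4+/+ replicates 1 to 4 was 21.4, 21.9, 20.5 and 26.0 CPM, and in the libraries labelled ErbB4-/- it was 39.4, 34.0, 35.9 and 25.7 CPM. These values stand on 599 to 1943 reads per library. Replicates 1 to 3 labelled ErbB4-/- were all above the highest ErbB4+/+ library, whereas replicate 4 was just below it, so the groups overlapped. The means were 22.5 ± 2.44 and 33.8 ± 5.83 CPM (SD, n = 4 each), a log2 fold change of 0.59 ± 0.124 (SE), or 1.51-fold. Leaving out 1 library at a time moved it between 0.51 and 0.70. With the log2 CPM of Xist in the model it was 0.36 ± 0.188 (SE), and among the low-Xist libraries alone, which hold 1 ErbB4+/+ and 4 libraries labelled ErbB4-/-, it was 0.37.

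**Figure D1:**
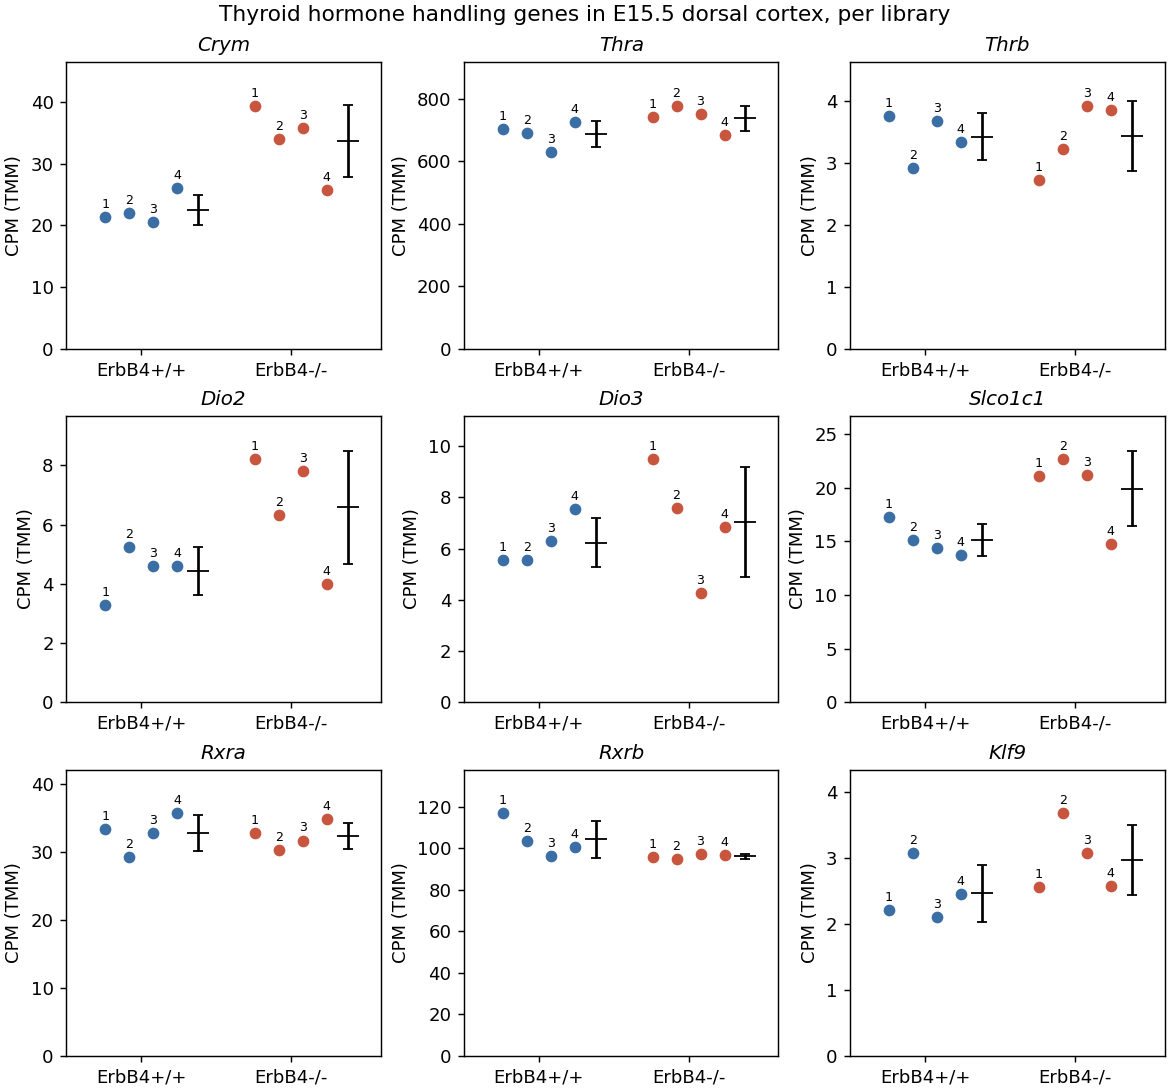
CPM after TMM scaling (y axes, each starting at 0) of the 9 genes in the 4 libraries of each genotype; points are libraries with their replicate number, and bars are the mean ± SD. In Crym, Slco1c1, Dio2 and Thra, ErbB4-/- replicates 1 to 3 lie above every ErbB4+/+ library while replicate 4 lies within the ErbB4+/+ range.

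Transport was represented by Slco1c1, which encodes OATP1C1, a carrier with a high affinity for T4 found on brain capillaries and choroid plexus. The gene lies on the plus strand at chr6:141472907-141518241 (mm9). It was at 17.2, 15.1, 14.4 and 13.7 CPM in ErbB4+/+ replicates 1 to 4 and at 21.1, 22.6, 21.2 and 14.7 CPM in the libraries labelled ErbB4-/-. Again the first 3 libraries labelled ErbB4-/- were above all ErbB4+/+ libraries, and replicate 4 was in the middle of them. The log2 fold change was 0.40 ± 0.128 (SE), with an unadjusted p of 0.00924 and an adjusted p of 0.81 (edgeR's quasi-likelihood test with Benjamini-Hochberg adjustment over all genes tested). With each library left out in turn the difference was 0.33 to 0.51, the largest without ErbB4-/- replicate 4 with an adjusted p of 0.191, and the unadjusted p was at most 0.0336.

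Markers of brain capillaries were set beside Slco1c1. Of the 9 endothelium and pericyte markers, 5 were higher and 4 lower in the libraries labelled ErbB4-/-, and 0 had an unadjusted p under 0.05. Their summed level was 265 to 276 CPM in ErbB4+/+ libraries and 261 to 274 CPM in those labelled ErbB4-/-. Cldn5, the main claudin of brain endothelium, was highest in ErbB4+/+ replicate 1, at 49.1 CPM. Mfsd2a, a lipid carrier of the blood-brain barrier, ranged from 30.3 to 35.9 CPM over all 8 libraries. Flt1 was at 7.92 to 11.4 CPM in ErbB4+/+ libraries and at 10.9, 11.1, 11.5 and 8.61 CPM in ErbB4-/- replicates 1 to 4. Abcb1a was at 3.28 to 5.04 CPM and at 4.81, 5.14, 4.38 and 3.18 CPM. Flt1, Abcb1a, Cldn5 and Mfsd2a were, like Slco1c1, lowest in replicate 4 among libraries labelled ErbB4-/-, at 34.75 CPM for Cldn5 and 31.7 CPM for Mfsd2a. Kdr and Pecam1 were highest there, and Slc2a1, Pdgfrb and Rgs5 were lowest in another of these libraries. The pericyte genes Pdgfrb and Rgs5 differed in sign. Pdgfrb was at 17.9 to 19.7 CPM in ErbB4+/+ libraries and 19.8 to 24.2 CPM in those labelled ErbB4-/-. Its groups did not overlap, as in 3.34% of all genes tested, and its log2 fold change was 0.18 ± 0.084 (SE). Rgs5 had a log2 fold change of -0.29 ± 0.154 (SE). The part of these markers in the values of Slco1c1 was not tested.

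Dio2 and Dio3 encode the deiodinases that activate and inactivate the hormone, and both enzymes carry a selenocysteine in their catalytic centre. Selenocysteine is encoded by TGA, which otherwise ends translation, and the coding sequences of both genes in the GENCODE annotation of mm9 hold such a codon in frame. The windows below were read from these coding sequences and show the codon that selenoprotein synthesis reads in both enzymes. Capitals mark the in-frame TGA, at codon 130 of 267 in Dio2 (Dio2-201), at codon 170 of 305 in Dio3 (Dio3-001), and again at codon 263 in Dio2.
Dio2, codon 130: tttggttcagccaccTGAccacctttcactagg
Dio3, codon 170: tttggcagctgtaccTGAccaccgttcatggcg
Dio2, codon 263: aatttcagcaagagaTGAattctagattag
The windows around codon 130 of Dio2 and codon 170 of Dio3 shared 21 of 33 bases at the same positions.

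Dio2 lies on the minus strand at chr12:91962994-91976878 (mm9). It was at 3.28, 5.23, 4.61 and 4.59 CPM in ErbB4+/+ replicates 1 to 4 and at 8.20, 6.32, 7.81 and 4.00 CPM in the libraries labelled ErbB4-/-, from 92 to 404 reads. As with Crym and Slco1c1, replicate 4 was the only library labelled ErbB4-/- that lay among the ErbB4+/+ values, and the lowest value of all was that of ErbB4+/+ replicate 1. The log2 fold change was 0.58 ± 0.213 (SE), or 1.49-fold, with an unadjusted p of 0.0198 and an adjusted p of 0.81 in edgeR. Leaving out 1 library at a time moved it between 0.45 and 0.74. The unadjusted p was 0.0699 without ErbB4-/- replicate 1 and 0.0587 without ErbB4-/- replicate 3, whereas without ErbB4-/- replicate 4 the adjusted p was 0.245. With Xist in the model the log2 fold change of Dio2 was 0.53 ± 0.37 (SE). Its biological coefficient of variation of 20.7% stood at the 90.4th percentile of the genes tested at any level.

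The Dio2 promoter is shown because this gene had the largest fold change among the 8 genes other than Crym, and because cAMP is known to drive its transcription. The 250 bases before its RefSeq start site, from a GRCm38 table and matched exactly to mm9 at chr12:91977479-91977728 on the minus strand, read as follows. Capitals mark TGACGTCA, the full cAMP response element, which begins 95 bases before the start site, and TATAAA, which begins 30 bases before it.
Dio2 promoter: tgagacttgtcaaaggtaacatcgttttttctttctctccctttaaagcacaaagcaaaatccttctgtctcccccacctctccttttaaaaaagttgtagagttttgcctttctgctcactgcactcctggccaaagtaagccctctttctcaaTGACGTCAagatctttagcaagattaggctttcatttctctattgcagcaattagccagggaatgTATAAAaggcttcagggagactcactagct
On either strand, TGACGTCA occurred in 1.55% of 32851 promoters of this length and TATAAA in 12.4%. The nuclear receptor half-site AGGTCA, present in 14.0% of all promoters, was not in this window, and neither motif overlapped the other. Promoters were matched for 7 of the 9 genes, not for Crym and Thra. Among them, AGGTCA was found in 1 promoter of Thrb and in 1 of Rxra, and TATAAA was also found in 1 of Dio3 and 1 of Thrb. The long noncoding gene Gm16738, annotated on the opposite strand, shares 100 exon bases (1.72%) with Dio2 and covers this window. With no strand kept, reads of the shared stretch cannot be told apart.

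Dio3, a single-exon gene of the imprinted Dlk1-Dio3 region, lies on the plus strand at chr12:111517278-111519307 (mm9). It was at 5.56, 5.55, 6.28 and 7.55 CPM in ErbB4+/+ replicates 1 to 4 and at 9.48, 7.58, 4.28 and 6.86 CPM in the libraries labelled ErbB4-/-. The highest and the lowest value of Dio3 were both in libraries labelled ErbB4-/-, in replicates 1 and 3. Between the genotypes the log2 fold change was 0.18 ± 0.207 (SE), with an adjusted p of 0.852 in edgeR, and its 95% interval ran from -0.23 to 0.58. It was -0.0055 without ErbB4-/- replicate 1, 0.36 without ErbB4-/- replicate 3 and -0.10 with Xist in the model. Replicate 3 labelled ErbB4-/-, lowest for Dio3, was second highest for Dio2, so the 2 deiodinases did not order the libraries alike.

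Thra and Thrb encode the nuclear receptors for T3. Thra, of which the TRα1 form binds hormone and the TRα2 form does not, was the most abundant of the 9 genes, at chr11:98601952-98630320 on the plus strand (mm9). Its levels were 704, 692, 630 and 725 CPM in ErbB4+/+ replicates 1 to 4 and 741, 778, 753 and 684 CPM in the libraries labelled ErbB4-/-. The same 3 libraries labelled ErbB4-/- were above every ErbB4+/+ library, but the step was small, with a log2 fold change of 0.10 ± 0.061 (SE) and an adjusted p of 0.81 in edgeR. Its 95% interval was from -0.02 to 0.22. The difference was 0.02 with Xist in the model, 0.03 among the low-Xist libraries and 0.06 without ErbB4+/+ replicate 3. It was 0.13 with the length trend removed and 0.14 without ErbB4-/- replicate 4. Gene-level counts do not separate the TRα1 and TRα2 forms.

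The 3′ end of Thra overlaps Nr1d1, the gene of the clock repressor REV-ERBα, on the opposite strand, and 263 bases (5.7% of the exons of Thra) are exonic in both. Reads there cannot be assigned without strand, so the counts of both genes are uncertain to that extent. Nr1d1 was at 94.8 to 130 CPM in ErbB4+/+ libraries and at 108 to 114 CPM in those labelled ErbB4-/-, with a log2 fold change of 0.02 ± 0.082 (SE) and an adjusted p of 0.96 in edgeR.

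Thrb, the other receptor gene, which in brain is known to rise later in development, lies at chr14:18493474-18870602 on the plus strand (mm9). It was near the low end, at 2.92 to 3.75 CPM in ErbB4+/+ libraries and 2.72 to 3.92 CPM in those labelled ErbB4-/-, from 91 to 153 reads. Both the highest and the lowest library were labelled ErbB4-/-, replicates 3 and 1. The log2 fold change was -0.0023 ± 0.156 (SE), with an adjusted p of 0.998 in edgeR and a 95% interval from -0.31 to 0.30.

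Rxra and Rxrb encode retinoid X receptors, the partners with which thyroid hormone receptors bind DNA. Rxra, at chr2:27531960-27618477 on the plus strand (mm9), was at 33.3, 29.3, 32.8 and 35.7 CPM in ErbB4+/+ replicates 1 to 4 and at 32.8, 30.3, 31.7 and 34.7 CPM in the libraries labelled ErbB4-/-. All 4 libraries labelled ErbB4-/- lay within the ErbB4+/+ range. The log2 fold change was -0.02 ± 0.076 (SE), and its 95% interval from -0.17 to 0.13 was narrower than that of the deiodinases. It was -0.15 with Xist in the model and -0.14 among the low-Xist libraries.

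Rxrb, at chr17:34168757-34175338 on the plus strand (mm9), was at 117, 103, 96.1 and 101 CPM in ErbB4+/+ replicates 1 to 4. In the libraries labelled ErbB4-/- it was at 95.8, 94.5, 97.0 and 96.6 CPM, all below the ErbB4+/+ mean. Its highest value, in ErbB4+/+ replicate 1, was that of the library with the length trend. Its log2 fold change was -0.12 ± 0.063 (SE), with an unadjusted p of 0.0875 and an adjusted p of 0.81 in edgeR, and without ErbB4+/+ replicate 1 it was -0.06.

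Klf9 encodes a Krüppel-like zinc finger protein and is a classical direct target of T3 in neural cells. It lies at chr19:23215716-23241401 on the plus strand (mm9). Its levels were 2.21, 3.08, 2.11 and 2.45 CPM in ErbB4+/+ replicates 1 to 4 and 2.56, 3.68, 3.07 and 2.57 CPM in the libraries labelled ErbB4-/-, from 62 to 128 reads. All 4 libraries labelled ErbB4-/- were above the ErbB4+/+ mean of 2.46 ± 0.435 CPM (SD, n = 4), but only replicate 2 was above the highest ErbB4+/+ library. This was a log2 fold change of 0.27 ± 0.178 (SE), with an adjusted p of 0.81 in edgeR, and 0.15 without ErbB4-/- replicate 2.

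Among the 8 genes other than Crym, 0 passed an adjusted p of 0.05 in edgeR, in DESeq2 or in limma-voom. At an unadjusted p under 0.05 there were 2 of 8 in each of the 3 tools, Slco1c1 and Dio2, both higher in the libraries labelled ErbB4-/-. Slco1c1 kept an unadjusted p under 0.05 whichever library was left out, whereas Dio2 did not without ErbB4-/- replicate 1 or replicate 3, and without the latter the 2 genes were Dio3 and Slco1c1. Of all genes tested, 5.53% had an unadjusted p under 0.05, with 3.00% higher and 2.52% lower in the libraries labelled ErbB4-/-. The groups overlapped in all 9 genes, while 3.34% of all genes tested had groups that did not overlap, 1.86% with the libraries labelled ErbB4-/- above. The median log2 fold change of the 8 genes was 0.14.

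**Figure D2:**
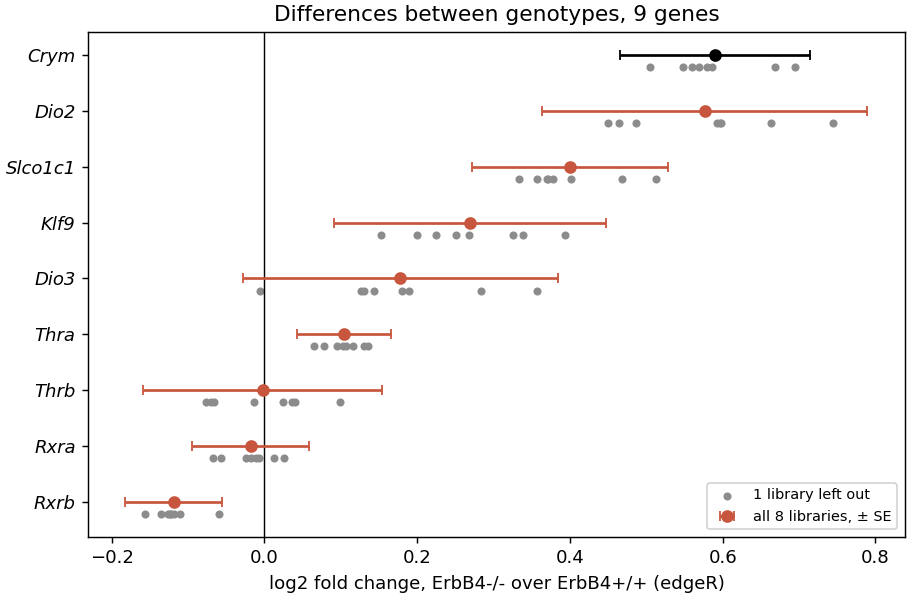
Log2 fold change (x axis) of libraries labelled ErbB4-/- over ErbB4+/+ for the 9 genes from edgeR; large points are all 8 libraries with bars of ± SE, small grey points leave out 1 library each, and Crym, in black, is shown as a description. Slco1c1, Dio2, Klf9, Thra and Crym stay above 0 and Rxrb stays below 0 whichever library is left out, whereas Dio3, Thrb and Rxra take both signs.

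ErbB4-/- replicate 4 lay within the ErbB4+/+ range in 8 of the 9 genes, the exception being Thrb, and it was the only library labelled ErbB4-/- within that range for Crym, Slco1c1, Dio2 and Thra. Over the 8 libraries, the log2 CPM of Crym had a Pearson's r of 0.86 with Dio2, 0.81 with Slco1c1, 0.81 with Thra, 0.55 with Klf9 and 0.30 with Dio3. It was -0.12 with Rxra, -0.31 with Thrb and -0.55 with Rxrb. After each genotype's mean was subtracted, r with Crym was 0.78 for Dio2, 0.72 for Thra, 0.57 for Slco1c1, 0.25 for Dio3 and 0.21 for Klf9. It was -0.08 for Rxra, -0.09 for Rxrb and -0.55 for Thrb. These are descriptions over 8 libraries that share the difference on which Crym was chosen.

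The extremes of r with Crym over all genes tested are listed as a description. Some had a higher r than any gene of the set, which ranking so many genes over 8 libraries would give in any case. The 5 genes with the highest r over the 8 libraries were 6330403A02Rik (0.956), Ripk4 (0.948), Afap1l2 (0.947), Cnih3 (0.941) and Slc1a1 (0.939). Cnih3, an auxiliary subunit of AMPA receptors, was at 45.5 to 51.8 CPM in ErbB4+/+ libraries and at 62.5, 66.5, 62.3 and 50.3 CPM in ErbB4-/- replicates 1 to 4. Slc1a1, a neuronal glutamate carrier, was at 43.5 to 51.7 CPM and at 61.8, 59.9, 61.6 and 53.0 CPM. In both, replicate 4 was the lowest of the libraries labelled ErbB4-/-, within the ErbB4+/+ range for Cnih3 and above it for Slc1a1. The lowest r were those of D7Ertd715e (-0.979), Spsb4 (-0.977) and E2f6 (-0.973). Within genotypes the highest were Nek11 (0.968), Cyp2u1 (0.964) and Ppapdc1b (0.962).

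Markers of the cells of the cortex also varied between these libraries. All 7 cortical progenitor markers were lower in the libraries labelled ErbB4-/- and 3 of them, Pax6, Nes and Vim, had an unadjusted p under 0.05 (0 with an adjusted p under 0.05). Of all 14696 genes tested, 7459 were lower and 7237 higher, with 2.52% and 3.00% at an unadjusted p under 0.05. Pax6, a transcription factor of radial glia, was at 92.5 to 112 CPM in ErbB4+/+ libraries and at 77.2, 79.3, 85.4 and 95.5 CPM in ErbB4-/- replicates 1 to 4, so that replicate 4 was again within the ErbB4+/+ range. Summed progenitor markers were 1653 to 1950 CPM in ErbB4+/+ libraries and 1579, 1534, 1620 and 1840 CPM in ErbB4-/- replicates 1 to 4. The members high in ErbB4-/- replicates 1 to 3 were thus high in the 3 libraries with the lowest summed progenitor markers. Of the 6 dorsal cortical neuron markers 3 were higher and 3 lower, with sums of 2284 to 2759 CPM and 2316 to 2651 CPM. Of those, 2 were higher with an unadjusted p under 0.05, among them Bhlhe22, a transcription factor of cortical projection neurons. No defining marker of either list was at 0 in any library. The part of these markers in the values of Crym, Slco1c1, Dio2 and Thra was not tested, and in bulk tissue fewer cells of a type and less RNA per cell cannot be told apart.

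The 12 markers of ganglionic eminence, striatum and interneurons summed to 585 to 761 CPM in ErbB4+/+ libraries and 578 to 751 CPM in those labelled ErbB4-/-, with 5 higher and 7 lower. Of these sources, the methods name the ganglionic eminences as removed. Subcerebral projection neuron markers summed to 776 to 837 CPM and 791 to 846 CPM, and subplate markers to 85.1 to 98.2 CPM and 89.6 to 99.0 CPM. Meningeal markers, also from tissue that was to be removed, were low, at 8.52 to 9.99 CPM and 8.86 to 14.5 CPM. Red blood cell markers summed to 31.7 to 56.1 CPM and 20.7 to 34.9 CPM. With an unadjusted p under 0.05, 2 of the 4 tested were lower, as were 2.52% of all genes tested. The 2 were Hbb-y and Hba-x. Hbb-y was at 13.9 to 34.6 CPM in ErbB4+/+ libraries and at 3.70, 4.05, 6.74 and 18.3 CPM in ErbB4-/- replicates 1 to 4. In both genes only replicate 4 of the libraries labelled ErbB4-/- lay within the ErbB4+/+ range. Alas2 went the other way, with a log2 fold change of 0.21 ± 0.125 (SE).

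Astroglia, in which Dio2 is known to be expressed, were represented by 8 markers. Of the 7 tested, 3 were higher and 4 lower, with sums of 834 to 1128 CPM in ErbB4+/+ libraries and 909 to 935 CPM in those labelled ErbB4-/-. Gfap, the intermediate filament of mature astrocytes, was at a low level, 0.571 to 0.931 CPM in ErbB4+/+ libraries and 1.89, 2.07, 1.23 and 0.858 CPM in ErbB4-/- replicates 1 to 4. Its log2 fold change was 1.04 ± 0.296 (SE), with an adjusted p of 0.81 in edgeR. Gfap was therefore lowest in the same library labelled ErbB4-/- as Dio2, and so were Aqp4, Aldh1l1, Slc1a3 and S100b. Among the libraries labelled ErbB4-/-, Gja1 and Aldoc were highest in that library, and Fabp7 was lowest in replicate 3. The part of these markers in the values of Dio2 was not tested.

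**Figure D3:**
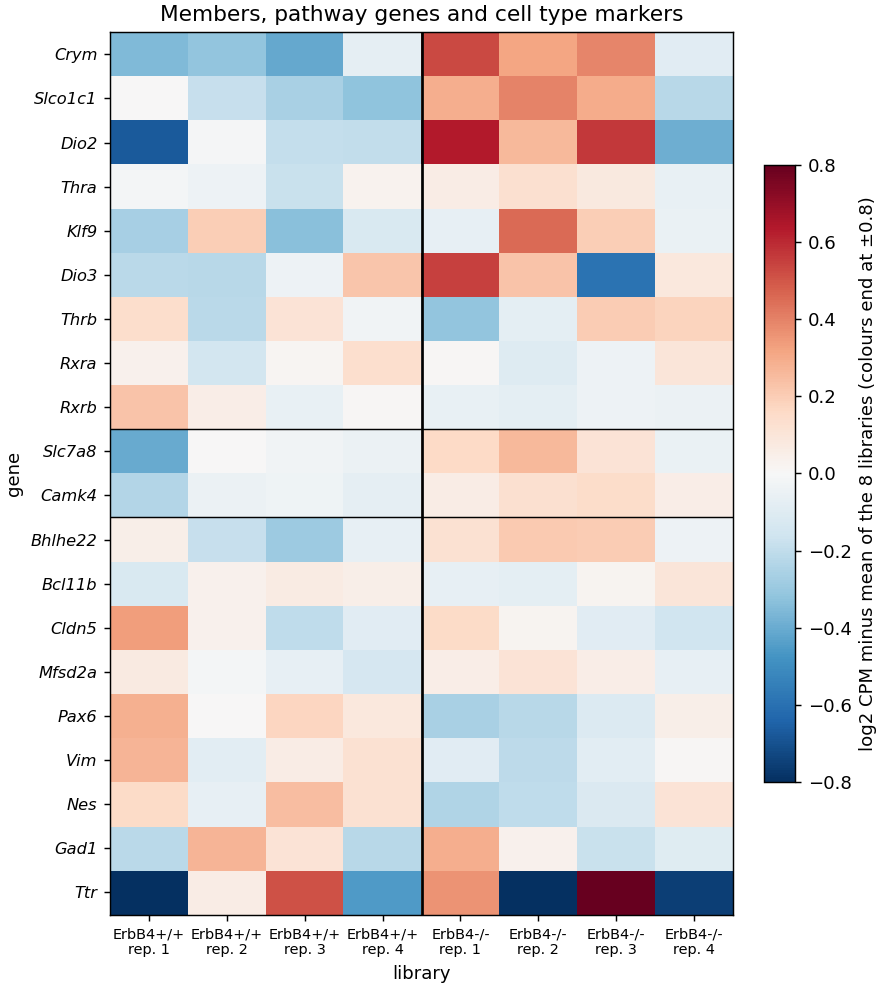
Log2 CPM minus the mean of the 8 libraries (colour scale, ending at ±0.8) for the 9 genes, 2 pathway genes and 9 cell type markers (rows) in the 8 libraries (columns, ErbB4+/+ left of the thick line). Crym, Slco1c1, Dio2 and Thra are high in ErbB4-/- replicates 1 to 3 and not in replicate 4. Pax6, Vim and Nes are below their means in the same 3 libraries, and Vim and Nes also in ErbB4+/+ replicate 2. Of the progenitor markers not drawn, Hes5 and Mki67 were also below their means in these 3 libraries. Sox2 was above its mean in ErbB4-/- replicate 1 (0.033) and Eomes in ErbB4-/- replicate 3 (0.007).

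The rest of the pathway was followed in 7 lists of 70 further genes, 55 of which were tested. Of these 55, 37 were higher and 18 lower in the libraries labelled ErbB4-/-, beside 7237 higher and 7459 lower of all 14696 genes tested. Of the 55, 0 passed an adjusted p of 0.05 (smallest 0.81), and their median log2 fold change was 0.07. At an unadjusted p under 0.05 there were 5 in edgeR (9.09%, against 5.53% of all genes tested), all higher. DESeq2 also gave 5 and limma-voom 4. This count rested in part on ErbB4-/- replicate 3, without which it was 2 of 55, beside 3.43% of all genes. It was 7 of 56 without ErbB4+/+ replicate 1, beside 5.93% of all genes, and 7 of 55 without ErbB4+/+ replicate 4, beside 4.95%. The median was 0.03 without ErbB4+/+ replicate 1.

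Of 7 tested genes for transport in plasma and across membranes, 5 were higher and 2 lower, and 3 had an unadjusted p under 0.05. Without ErbB4-/- replicate 3, 3 were higher and 4 lower. Slc7a8, which encodes the amino acid and thyroid hormone carrier LAT2 and was named after its values were seen, was at 19.2, 25.4, 24.8 and 24.6 CPM in ErbB4+/+ replicates 1 to 4 and at 28.3, 30.4, 27.4 and 24.5 CPM in the libraries labelled ErbB4-/-. Its groups overlapped by replicate 4 alone of the libraries labelled ErbB4-/-. It differed by 0.23 ± 0.10 (log2, SE), with an unadjusted p of 0.0391 and an adjusted p of 0.81 in edgeR. Without ErbB4+/+ replicate 1, the library with the length trend, it differed by 0.15, with an unadjusted p of 0.0697 in edgeR. That p was 0.0825, 0.119 and 0.0657 without ErbB4-/- replicates 1, 2 and 3 in turn. Slc7a5, encoding LAT1 and the most abundant of the list, had 130 to 139 CPM in ErbB4+/+ libraries and 134 to 146 CPM in those labelled ErbB4-/-.

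Ttr, the gene of the T4 carrier transthyretin that is made in choroid plexus, had the widest range of all genes in the pathway lists. It was at 0.571, 6.38, 8.76 and 4.47 CPM in ErbB4+/+ replicates 1 to 4 and at 7.88, 0.747, 572 and 3.62 CPM in the libraries labelled ErbB4-/-. A single library, ErbB4-/- replicate 3, thus set its log2 fold change of 4.82 ± 1.64 (SE), which was -0.29 without that library. All 7 choroid plexus markers were highest in replicate 3, their sum was 632 CPM there and 3.60 to 15.48 CPM in the other 7 libraries, and none of Ttr, Folr1 and Kcnj13 was at 0 in any library. Slc16a10, the aromatic amino acid and T3 carrier MCT10, was highest there too, at 6.20 CPM against 1.73 to 2.83 CPM in the other 7 libraries. Slco1c1, known from choroid plexus as well as capillaries, was at 21.2 CPM in that library, between the 21.1 and 22.6 CPM of replicates 1 and 2 labelled ErbB4-/-, and without replicate 3 its log2 fold change was 0.37.

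Deiodination and selenoprotein synthesis, the process that reads the TGA codons of Dio2 and Dio3, had 7 tested genes, 1 higher and 6 lower, with 0 at an unadjusted p under 0.05 and a median of -0.04. Txnrd1, a selenoprotein that reduces thioredoxin and the most abundant of this list, was at 319 to 336 CPM in ErbB4+/+ libraries and 306 to 326 CPM in those labelled ErbB4-/-. Of 15 receptor partners and cofactors 13 were higher and 2 lower, with 0 at an unadjusted p under 0.05 and a median of 0.08. Without ErbB4+/+ replicate 1, 6 of them were higher and 9 lower. Ncor1, the corepressor bound by receptors without hormone, was at 250 CPM in ErbB4+/+ replicate 1 and at 333 to 371 CPM in the other 7 libraries. Of 9 tested other nuclear receptors that pair with RXR, 2 were higher and 7 lower, with 0 at an unadjusted p under 0.05 and a median of -0.08. Without ErbB4+/+ replicate 4 the median of these receptors was -0.04. The most abundant of them, Nr1h2, which encodes the liver X receptor LXRβ, had a log2 fold change of -0.12 ± 0.074 (SE).

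In the thyroid hormone responsive list all 10 tested genes had a log2 fold change above 0, and 7 to 10 did with each library left out in turn, Hr and Mbp being below 0 without ErbB4+/+ replicate 1. Of the 10, 2 had an unadjusted p under 0.05, beside 3.00% of all genes tested that were higher with such a p. The median of the 10 was 0.16. The median was 0.09 without ErbB4-/- replicate 1, 0.10 without ErbB4+/+ replicate 4 and 0.20 without ErbB4+/+ replicate 1. Camk4, a calcium and calmodulin dependent kinase and the most abundant of the list, was at 47.0, 53.3, 53.9 and 52.5 CPM in ErbB4+/+ replicates 1 to 4 and at 57.4, 60.2, 61.1 and 57.3 CPM in the libraries labelled ErbB4-/-. Its groups did not overlap, which held for 3.34% of all genes tested. Its log2 fold change was 0.19 ± 0.063 (SE), with an adjusted p of 0.81 in edgeR. Here ErbB4-/- replicate 4 was above every ErbB4+/+ library, unlike in Crym, Slco1c1 and Dio2. Hr, the corepressor gene hairless and a direct T3 target of brain, was at 13.4 to 16.2 CPM and 13.8 to 15.7 CPM, with a log2 fold change of 0.01 ± 0.085 (SE).

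All 4 tested Krüppel-like factors close to Klf9 were higher, with a median of 0.11 and 0 at an unadjusted p under 0.05. Klf13, the most abundant of them, was at 90.8 to 95.8 CPM in ErbB4+/+ libraries and at 97.1 to 106 CPM in those labelled ErbB4-/-. Its groups did not overlap, as in 3.34% of all genes tested. Of the genes for hormone synthesis in the thyroid gland only 3 of 8 had enough reads to be tested, of which 2 were higher and 1 lower. Nkx2-1, the most abundant of them and also a factor of the ventral telencephalon, was at 7.63 to 24.6 CPM and 9.37 to 27.0 CPM.

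**Figure D4:**
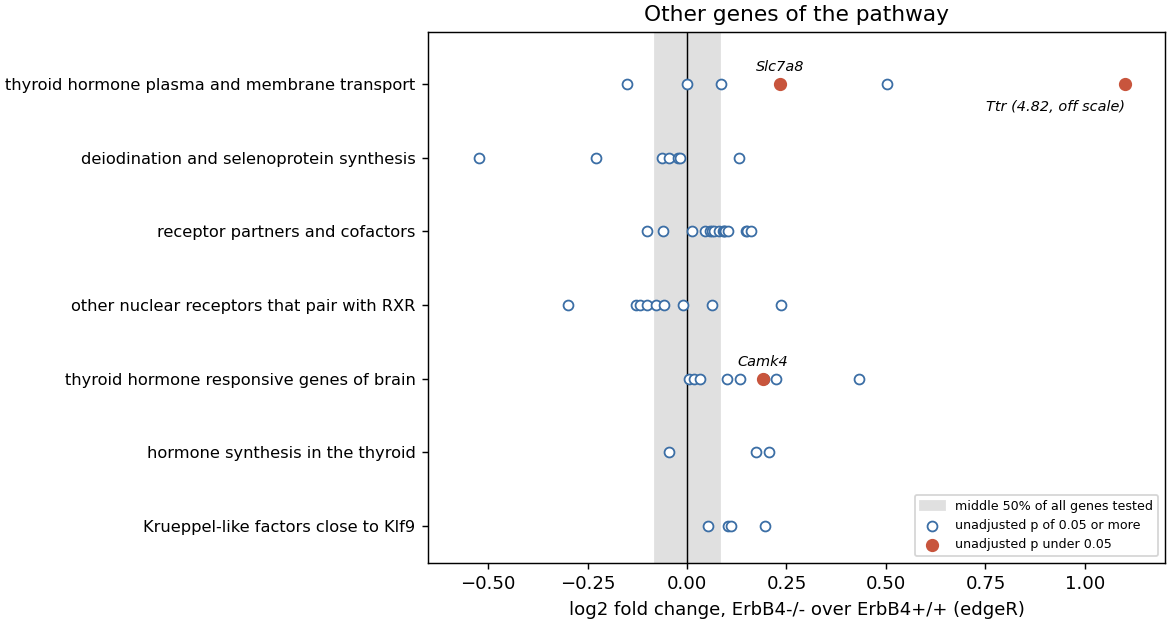
Log2 fold change (x axis) of libraries labelled ErbB4-/- over ErbB4+/+ for tested genes of the 7 pathway lists (rows), without those not reported here; filled points have an unadjusted p under 0.05, and the grey band is the middle 50% of all genes tested. The filled points are Slc7a8, Camk4 and Ttr, whose value of 4.82 is drawn at the edge, and all lie above 0.

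Levels were compared between the 9 genes as reads per kb of the longest annotated transcript, scaled like CPM, since longer transcripts give more reads. Thra came first, at 291 (range 257 to 317 over the 8 libraries), followed by Rxrb at 38.2, Crym at 10.5, Rxra at 6.64, Slco1c1 at 6.43, Dio3 at 3.27, Dio2 at 0.947, Klf9 at 0.833 and Thrb at 0.563. The receptor gene Thra was thus at a far higher level per length than Thrb, and the inactivating deiodinase Dio3 was above the activating Dio2. Within libraries the log2 difference in level was 2.93 ± 0.149 (SD) between Thra and Rxrb and 1.82 ± 0.542 (SD) between Dio3 and Dio2, in the same order in 8 of 8 libraries.

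In all, 6 of the 8 pairs of neighbours in this order kept it in every library. The 2 of them that hold Crym are a description. The other 4 each had an exact two-sided sign-flip permutation p of 0.0078, the smallest that 8 libraries can give, and an adjusted p of 0.0104 over the 8 pairs. That adjustment includes the pairs with Crym, and neighbours were set by the mean levels in these same libraries. By this length, the remaining 2 pairs did not differ beyond their spread. Rxra and Slco1c1 differed by 0.07 ± 0.344 (SD, log2), with Rxra above in 5 of 8 libraries (exact permutation p = 0.570). Rxra was above Slco1c1 by 0.27 (log2) in ErbB4+/+ libraries, and the difference was -0.13 in those labelled ErbB4-/-. This pair also depended on the length used, since Rxra was above Slco1c1 by 1.36 on the log2 scale by the median transcript length and differed by -0.09 by the union of exons. Dio2 and Klf9 differed by 0.14 ± 0.383 (SD, log2), with Dio2 above in 4 of 8 libraries (exact permutation p = 0.344, adjusted p = 0.393). Crym was above Rxra per length of the longest transcript, by 0.62 on the log2 scale (0.32 in ErbB4+/+ libraries and 0.92 in those labelled ErbB4-/-), and below it by the median transcript length, a difference of -0.30.

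**Figure D5:**
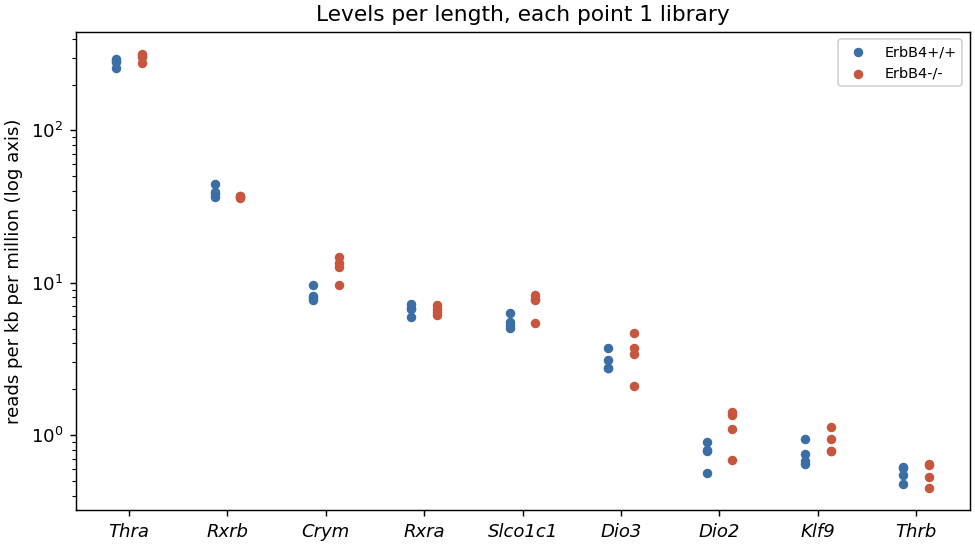
Reads per kb of the longest annotated transcript, scaled like CPM (y axis, log scale), of the 9 genes in order of their mean, each point 1 library, ErbB4+/+ left and ErbB4-/- right for each gene. Thra lies above all others in every library, and Rxra with Slco1c1 and Dio2 with Klf9 have overlapping ranges.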

How the data were processed

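Single-end reads of 50 nt from 8 polyA-selected, unstranded libraries were aligned by the authors to mm9 with HISAT and counted per gene with HTSeq, as the submitters' processing notes name these tools; their versions and the gene annotation are not given in the sources used here. The deposited files hold raw counts (whole numbers per gene symbol, not normalized), 1 file per library. A deposited table of the authors' own DESeq2 comparison (fold changes and p-values) was not used.

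Genotypes were taken from the labels. The quasi-likelihood test of edgeR 4.0.16 (R 4.3.3) was run on TMM-scaled counts with genotype as the only factor. Genes with low counts were dropped by filterByExpr (minimum count 10, minimum total 15), which left 14696, and p-values were adjusted over these by Benjamini-Hochberg at a threshold of 0.05. CPM values are after TMM scaling, and log2 CPM has a prior count of 2. The SE of a log2 fold change was taken from the fitted model. Intervals reflect the spread and counting error of these libraries only. The totals were 28205703 to 38346416 for ErbB4+/+ and 31574536 to 48871480 for ErbB4-/-. Genes under 4 CPM therefore rest on few reads, for example 16 to 93 per library for Gfap, and have wide errors.

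The members and the lists were chosen with earlier results of these data known. The lists were written by hand for transport, deiodination, receptor partners, other nuclear receptors, responsive genes, hormone synthesis, Krüppel-like factors and cell type markers. The genes named are the 9 members, in each pathway list up to 2 genes with the smallest unadjusted p under 0.05 and the most abundant, the 5 highest, 3 lowest and 3 highest within-genotype correlations with Crym, genes that overlap a member, markers, and Erbb4 and Xist. Ncoa1 and the other cofactors are given by their counts. Wdfy1, Slc7a8, Slc16a10, Mbp and Hr were named after their values were seen. Some genes of the lists that this rule would name are not reported here.

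Positions, transcript lengths and coding sequences came from the GENCODE annotation and genome of mm9, matched by symbol, and promoters from RefSeq (GRCm38), matched for 7 of 9 members. The 250 bases before each start were searched on both strands for exact AGGTCA, TGACGTCA and TATAAA.

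The alternatives were DESeq2 1.42.0, limma-voom (limma 3.58.1), scaling by relative log expression, upper quartile or library total, all genes with a read, only genes with a mean of 50 counts or more, a block for the replicate number, a covariate for Xist, the low-Xist libraries alone, the trend with transcript length removed, a prior count of 0.5, other transcript lengths, and fits that each leave out 1 library. The steps were tested on simulated data. Python 3.11.15 with matplotlib 3.10.9 drew the figures.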

Additional observations from a re-analysis of the deposited data

Results flagged for a closer look

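Ttr, the transthyretin gene, was at 572 CPM in the library labelled ErbB4-/- replicate 3, far from the other 3 libraries of its group, which were at 0.747 to 7.88 CPM. The gap to the nearest library took 0.988 of the group's range, above Dixon's critical value for 4 libraries. It was the only such value among 38 groups checked, of which about 1 in 20 would exceed the limit by chance. Among the choroid plexus markers, Clic6 was at 25.9 CPM, Aqp1 at 14.7 CPM and Folr1 at 9.09 CPM in the same library.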

How the results depend on the processing

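The count of genes past an adjusted p of 0.05 among all genes tested, 4 in edgeR, was 24 with DESeq2, 1 with relative log expression, 1 with upper-quartile scaling, 1 with Xist as a covariate, 2 with the length trend removed and between 1 and 13 with each library left out (13 when the fourth ErbB4+/+ library was left out, 6 when the first was, 2 when the second was or the fourth labelled ErbB4-/- was, and 1 for each of the other 4). The cause of these shifts was not tested. Of the 8 genes other than Crym and of the pathway genes, 0 passed in any of 18 alternatives. The number of the 8 with an unadjusted p under 0.05, 2 in edgeR, was 1 with Xist as a covariate and 3 with the length trend removed. With each library left out it was 1 to 3 (1, Slco1c1, without ErbB4-/- replicate 1, and 3, with Rxrb, without ErbB4+/+ replicate 3). Dio2 was not among them without ErbB4-/- replicate 1 or 3, and Dio3 took its place in the latter. With Xist as a covariate the log2 fold change was 0.53 ± 0.37 (SE) for Dio2 and 0.52 ± 0.219 (SE) for Slco1c1. The log2 fold change of Crym, 0.59, was 0.36 with Xist as a covariate and 0.51 to 0.70 with each library left out. Thra, Dio2, Slco1c1, Klf9 and Rxrb kept their direction in all 20 alternatives, but not their size, as Thra went from 0.10 to 0.02 with Xist as a covariate and Klf9 from 0.27 to 0.15 without ErbB4-/- replicate 2. The direction reversed for Thrb with upper-quartile scaling (0.0056), with Xist as a covariate (0.035) and within leave-one-out values from -0.077 to 0.098. It reversed for Dio3 with Xist as a covariate (-0.10) and within leave-one-out values from -0.0055 to 0.36, and for Rxra within leave-one-out values from -0.068 to 0.026. Among the low-Xist libraries Dio3 was at -0.10 and Rxra at -0.14, and with Xist as a covariate Rxra was at -0.15. In the order of levels per length, 6 pairs (2 with Crym in the main order) passed in each of the 10 alternatives, but not the same 6 with the median transcript length, by which Rxra stood above Crym (-0.30) and above Slco1c1 (1.36). In the libraries labelled ErbB4-/- alone, 7 of the 8 pairs kept the order.

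With the replicate block (the replicate number of the labels as a block), 1 gene of all tested passed, and the log2 fold change of Crym was 0.58. The numbers are not shown to pair the libraries, since same-numbered libraries deviated together with correlations of 0.0837, 0.135, 0.0476 and 0.0236, and only replicates 1 and 2 correlated best with their own number. Thrb and Klf9 rest on 62 to 153 reads per library, and sex pattern follows genotype in 7 of 8 libraries.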
